A study of Mus musculus with 8 samples.

Results

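The genes described here were 8 members of the serpin family and the plasminogen activator system: Serpina3n, Serpina3g, Serpine2, Serpinf1, Serpinb6a, Plau, Plaur and Plat. They were taken by symbol from the deposited expression table, where all 8 had a value among 12588 gene symbols. The list had been put together with results of the treatment comparison in view, so the presence of a gene in it is not a finding. RNA was sequenced from mSSC-YFP, a yfp-expressing stromal line derived from mouse spleen and grown in medium with fetal bovine serum. Of 8 samples, 4 had received BMS493, an inverse agonist of the retinoic acid receptors, and 4 had received the DMSO vehicle, both for 48 h. The experiment asked what blocking retinoic acid signalling changes in stromal cells. The values used were the authors' mean log2 level of each gene over all samples, which pools both treatments, so that no level of a treated or control sample, no replicate error and no effect of BMS493 is given below.

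Serpins are a family of proteins that mostly inhibit serine proteases, or in some cases cysteine proteases, by trapping the enzyme after it cuts an exposed loop of the inhibitor. A few family members do not inhibit proteases and act as chaperones or as secreted signals. The plasminogen system is one of their targets: the activators uPA and tPA convert plasminogen to plasmin, which degrades fibrin and matrix proteins, and receptors on the cell surface hold activator and zymogen where they act. In connective tissue the system takes part in matrix turnover and cell migration.

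The mean log2 levels in the table ran from -0.58 to 13.3, with a median of 4.99. Their linear values summed to 989369, so that a value is close to a geometric mean of CPM. The label of the line was checked against marker genes. All 10 stromal markers on the list had a value, between 5.24 and 13.3 on the log2 scale, which places them at or above percentile 55.1 of all genes before scaling by length. Of the 5 leukocyte markers examined, among them Ptprc and Cd3e, 0 had a value, and the endothelial marker Pecam1 had a mean log2 level of 0.47, at percentile 3.44 on that scale. Per kb of longest transcript, the stromal marker Pdgfra was at percentile 34.6, below the median gene, and the other stromal markers lay above that gene. Fewer cells carrying a transcript and less transcript per cell cannot be told apart in such bulk samples.

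**Figure D1:**
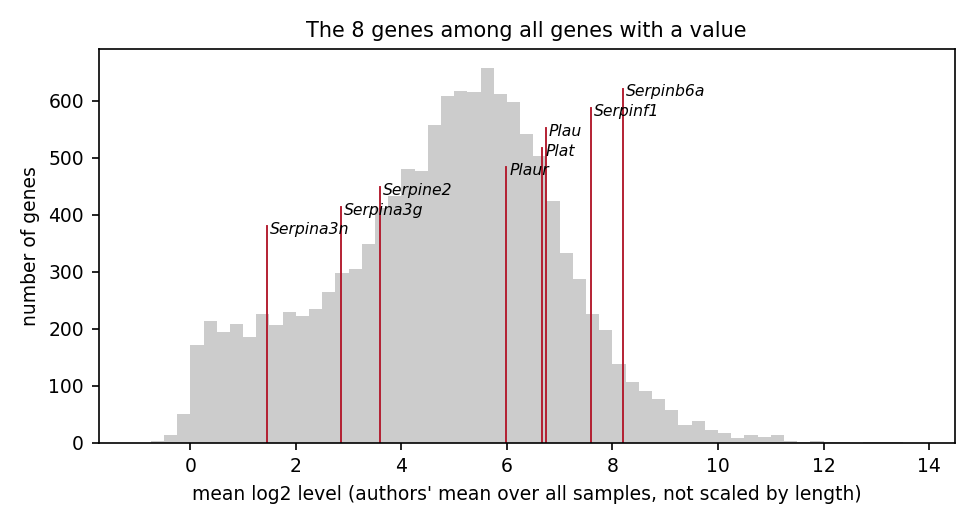
Histogram of the authors' mean log2 level over all samples (horizontal axis, not scaled by length) for all genes with a value, with the number of genes per bin on the vertical axis and a red line for each of the 8 genes, whose height carries no value. Serpina3n, Serpina3g and Serpine2 lie on the low side, between 1.44 and 3.59, and the other 5 genes between 5.99 and 8.20.

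Because a longer transcript gives more reads, genes were compared per kb, by subtracting the log2 of the length of the longest annotated transcript in kb. On this scale the 8 genes spanned 6.67 log2 units, and 5 of 8 lay above the median gene, which had a log2 level of 3.28 per kb. The median percentile of the 8 genes was 78.8, and 2 of them lay above percentile 90. From high to low the order was Serpinb6a, Serpinf1, Plau, Plaur, Plat, Serpina3g, Serpine2 and Serpina3n. There is no replicate spread against which neighbours in this order can be judged. With coding length in place of transcript length, Serpine2 and Serpina3g changed places.

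Serpina3n and Serpina3g are relatives of human antichymotrypsin encoded in a cluster of clade a serpins on chromosome 12. Serpina3n is secreted and inhibits proteases of leukocyte granules, such as cathepsin G and granzyme B. Serpina3g, or Spi2A, inhibits lysosomal cathepsins that reach the cytosol. Serpina3n (chr12:104406729-104414329, plus strand, mm10) had a mean log2 level of 1.44 and 0.40 per kb, at percentile 11.5, the lowest of the 8 genes. Serpina3g (chr12:104236245-104241939, plus strand) had a mean log2 level of 2.85 and 2.00 per kb, at percentile 27.0. Per kb of transcript Serpina3g was thus 3.03 times as abundant as Serpina3n, or 4.45 times per kb of coding length. The annotated coding sequence of Serpina3g is 747 bases long, against 1257 for Serpina3n. Its values per kb of coding length rest on this shorter annotated frame.

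The cluster between chr12:103614786-104414329 holds 28 annotated serpin genes, 23 of them protein-coding. Only Serpina3n, Serpina3g and Serpina3h, annotated as a transcribed pseudogene with a log2 level of -0.07 per kb, had a value there. For the remaining genes of the cluster no value was found and their levels were not analysed here. Only the sequences of some of them were compared.

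The copies in this cluster are alike enough that a short read could fit more than 1 of them, so their letters bear on how far the 2 levels can be told apart. In coding sequence, 559 of 649 aligned bases of Serpina3n and Serpina3g were identical, or 86.1%. The other 8 Serpina3 genes compared matched Serpina3n at 79.1 to 86.0% of aligned bases, over longer alignments of 1224 to 1257 bases. The longest identical stretch of the pair was 100 bases, as long as 1 read. It is coding bases 986 to 1085 of Serpina3n, from exons 4 and 5 of 5 (chr12:104412408-104412484 and chr12:104413412-104413434), and coding bases 380 to 479 of Serpina3g, also from exons 4 and 5 of 5 (chr12:104240321-104240397 and chr12:104241036-104241058). It reads, on the plus strand:
Serpina3n and Serpina3g: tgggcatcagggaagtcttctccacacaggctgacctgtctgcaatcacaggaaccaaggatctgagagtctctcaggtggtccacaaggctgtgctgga
The window of 100 aligned bases in which they differ most, at 29 positions shown in capitals, lies in exon 3 of both genes. In Serpina3n it is coding bases 648 to 747 (chr12:104411137-104411236), and in Serpina3g coding bases 42 to 141 (chr12:104239045-104239144). These letters tell the genes apart:
Serpina3n: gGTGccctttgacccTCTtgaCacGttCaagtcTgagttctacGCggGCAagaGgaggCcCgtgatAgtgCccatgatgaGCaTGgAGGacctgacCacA
Serpina3g: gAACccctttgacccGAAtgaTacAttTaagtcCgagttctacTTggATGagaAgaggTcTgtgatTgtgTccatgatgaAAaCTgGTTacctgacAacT

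Every possible read of 100 bases along each longest transcript was looked up in the transcripts of all other genes, on both strands. For Serpina3n, 1961 of 1965 such windows were found in no other gene, or 99.8%. For Serpina3g the figure was 1625 of 1704, or 95.4%, with windows shared with Serpina3h (36), Serpina3i (36), Serpina3e-ps (22), Serpina3f (20) and Serpina3n (1). All windows of the other 6 genes were found in no other gene. The authors counted reads that mapped to 1 place, so reads from windows shared in full would not be counted. The search covered transcripts and not the rest of the genome.

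**Figure D2:**
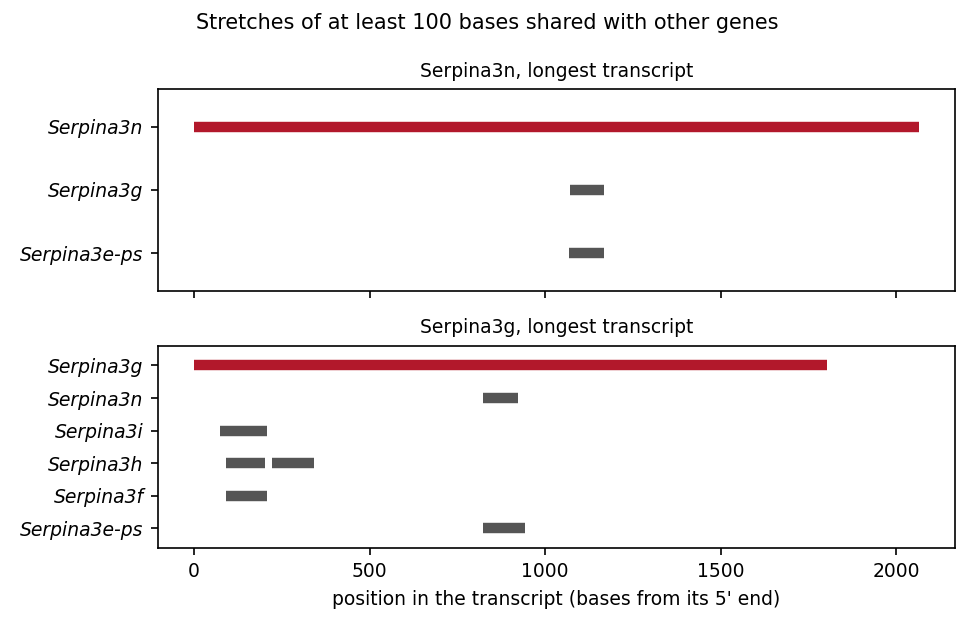
Stretches of at least 100 bases in the longest transcripts of Serpina3n (upper panel) and Serpina3g (lower panel) that are identical to a stretch in another gene, plotted as grey bars by position from the 5′ end in bases, with the transcript itself as a red bar. Serpina3n shares the region from base 1067 to 1169, and Serpina3g shares regions near its 5′ end and from base 823 to 943.

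Serpine2, or protease nexin-1, is a secreted inhibitor of thrombin and of both plasminogen activators, held at the cell surface by heparan sulfate. The gene (chr1:79794197-79861180, minus strand) had a mean log2 level of 3.59 and 1.83 per kb, at percentile 24.9. Serpini1 (neuroserpin), a secreted inhibitor of the tissue-type activator, stood lower, with a log2 level of -2.12 per kb.

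Serpinf1 encodes pigment epithelium-derived factor, a secreted serpin without protease inhibitory activity that is known for restraining vessel growth. The gene (chr11:75409769-75422701, minus strand) had a mean log2 level of 7.59 and 6.71 per kb, at percentile 95.3. Serpinb6a exceeded it 1.28 times per kb of transcript and 1.59 times per kb of coding length. Among genes of proteins proposed as receptors of this factor, the log2 levels per kb were 8.34 for Rpsa, 3.53 for Pnpla2, 0.96 for Plxdc2 and -1.72 for Plxdc1. Rpsa, which is also a protein of the ribosome, was the highest of these.

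Serpinb6a is an intracellular clade b serpin that inhibits trypsin-like proteases and cathepsin G. It had the highest level of the 8 genes, at a mean log2 of 8.20 and 7.07 per kb, percentile 96.7. The gene (chr13:33917918-34002794, minus strand) lies at the end of a cluster of 16 serpin genes, 15 of them protein-coding, of which 5 had a value. Serpinb6b, in the same cluster, was at the same level, with a ratio of 1.00 per kb of transcript and 1.06 per kb of coding length. The 2 genes are also close in sequence, with 977 of 1131 aligned coding bases identical, or 86.4%. The like levels make it relevant whether reads could be exchanged. No identical stretch of coding sequence was longer than 57 bases, and in neither gene was a window of 100 bases shared with another gene. The 100 bases in which the pair differs least hold 4 differences, in capitals. They are coding bases 402 to 501 of Serpinb6a, from exons 5 and 6 of 8 (chr13:33925312-33925409 and chr13:33923067-33923068, minus strand), and coding bases 339 to 438 of Serpinb6b, from exons 4 and 5 of 7 (chr13:32972267-32972364 and chr13:32974897-32974898, plus strand):
Serpinb6a: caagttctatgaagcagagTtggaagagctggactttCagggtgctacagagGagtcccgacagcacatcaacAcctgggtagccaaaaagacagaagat
Serpinb6b: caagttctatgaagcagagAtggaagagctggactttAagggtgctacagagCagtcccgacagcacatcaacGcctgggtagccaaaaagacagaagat

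Across the family, 14 of the 67 annotated serpin genes considered, or 13 of 60 protein-coding ones, had a value, and 7 of the 14 lay above the median gene per kb. By clade, 3 of 29 genes of clade a and 6 of 28 of clade b had one. These counts were not set beside the share of all annotated genes that have a value. Of the summed linear level per kb of these 14 genes, the 5 serpins described above made up 20.2%, almost all of it from Serpinb6a (10.9%) and Serpinf1 (8.55%). Serpina3g contributed 0.325% and Serpine2 0.290%, and Serpina3n less than either. Serpinh1, the collagen chaperone HSP47, alone made up 54.8% and stood 5.02 times above Serpinb6a per kb. The clade b genes together made up 35.8%, and the clade a genes 0.510%. Per kb of coding length, over the 13 genes with one, the 5 serpins made up 17.6%, Serpinh1 51.1% and clade b 41.5%. Among clade b, Serpinb9, an inhibitor of granzyme B, had a log2 level of 5.99 per kb, and Serpinb6a exceeded it 2.11 times, or 1.25 times per kb of coding length. Serpinb9b was higher than Serpinb9, at 6.42 per kb. Per kb of coding length Serpinb9b was at 7.94, against 7.93 for Serpinb6a.

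**Figure D3:**
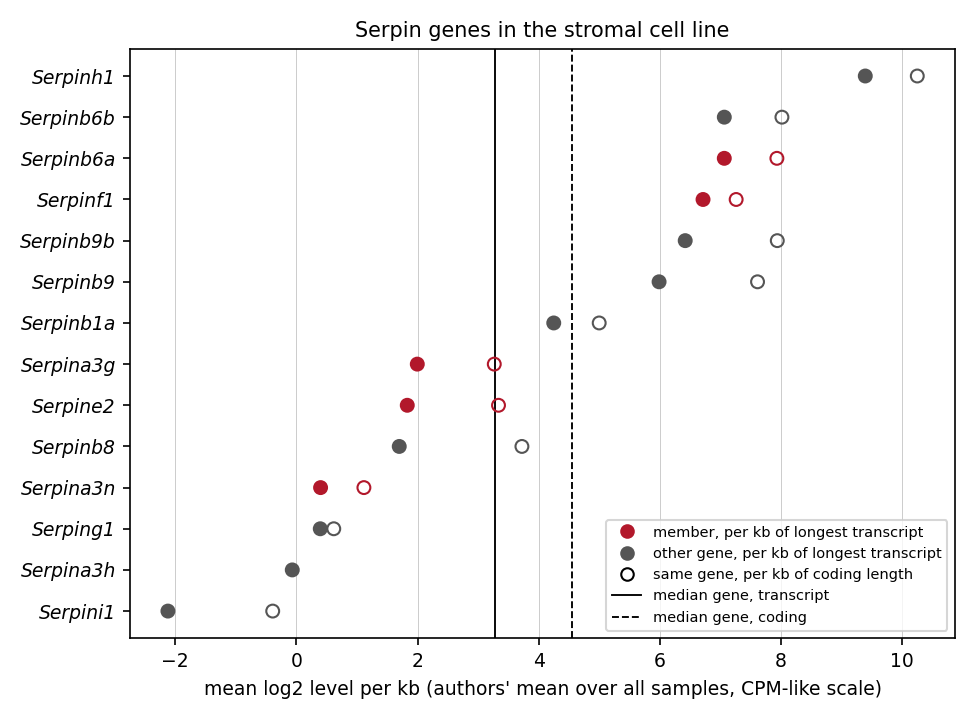
The 14 serpin genes considered that had a value, ordered by the authors' mean log2 level per kb over all samples (horizontal axis). Filled points use the longest transcript and open points the coding length, red marks the 5 serpins among the 8 genes, and vertical lines mark the median gene on each scale, at 3.28 and 4.55. Serpinb6a and Serpinf1 lie above both medians, and Serpina3g, Serpine2 and Serpina3n below the median of their own scale.

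Of 15 listed proteases that are targets or candidate targets of these serpins, 4 had a value, and they were lysosomal cathepsins. This count was not set beside the share of all annotated genes that have a value, so it is not a result about the proteases. The log2 levels per kb were 6.61 for Ctsb, 6.14 for Ctsl, 3.84 for Ctsk and 1.04 for Ctsh. Ctsb and Ctsl, the highest of the 4, were 24.4 and 17.7 times as abundant as Serpina3g per kb of transcript. Per kb of coding length the ratios were 47.1 and 44.9, so their size depends on the length used. Serpina3g was at 2.00 per kb of transcript. Ctsk also lay above Serpina3g and Ctsh lay below it, with either length. For the leukocyte granule proteases Ctsg, Cma1, Elane, Prtn3, Gzma and Gzmb, for Ctss, and for F2, F10, Prss8 and St14, no value was found and they were not analysed here.

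Plau encodes urokinase (uPA), the activator that works at the cell surface, and Plat encodes the tissue-type activator (tPA), which works best on fibrin. Plau (chr14:20836660-20843385, plus strand) had a mean log2 level of 6.74 and 5.51 per kb, at percentile 87.5. Plat (chr8:22757727-22782844, plus strand) had a mean log2 level of 6.67 and 4.65 per kb, at percentile 76.4. The levels before scaling were nearly the same, but the longest Plat transcript has 4042 bases against 2342 for Plau. Per kb, Plau was 1.81 times as abundant, or 1.36 times per kb of coding length.

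Plaur encodes the urokinase receptor uPAR, an anchored surface protein that binds Plau. The gene (chr7:24462484-24475968, plus strand) had a mean log2 level of 5.99 and 4.98 per kb, at percentile 81.1. The ligand transcript stood at 1.44 times the receptor transcript per kb, or 1.27 times per kb of coding length. Plat stood at 0.796 times Plaur, or 0.938 times per kb of coding length. Plau, Plaur and Plat thus lay within 0.86 log2 units per kb of each other.

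Serpine2, which inhibits both activators, was also set beside them. Plau stood at 12.8 times and Plat at 7.06 times its level per kb, and at 8.11 and 5.98 times per kb of coding length. Serpine2 thus lay below both, whichever length was used.

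Of 27 genes of the plasminogen system considered, 16 had a value, and 9 of the 16 lay above the median gene per kb. Both activators, all 5 surface receptors and all 6 endocytic receptors had one, as did 2 of 8 inhibitors considered and 1 of 5 targets. The share of all annotated genes with a value was not computed, so these counts are not a result about the roles. The zymogen Plg, made by the liver, was among those for which no value was found, as were Serpinb2, Serpina5, Serpinf2, A2m, Pzp, Cpb2, Fga, Fgb, Fgg and Mst1. They were not analysed here. Anxa2 and S100a10, which form a plasminogen-binding complex at the surface, had log2 levels of 9.62 and 9.23 per kb, and Anxa2 exceeded Plaur 25.0 times. Both proteins have other functions, as does the glycolytic enzyme Eno1 at 7.20. Plgrkt, a membrane receptor for plasminogen, was at 5.20 and so close to Plaur.

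Lrp1, the scavenger receptor that removes complexes of activator and inhibitor from the surface, had a log2 level of 7.31 per kb. It exceeded Plaur 5.03 times per kb of transcript and 2.69 times per kb of coding length. Mrc2, a collagen receptor that associates with uPAR, was at 5.81. The other uptake receptors were lower, with Lrp8 at 2.37, Vldlr at 1.96, Lrp2 at -1.64 and Sorl1 at -2.21. Of the summed linear level per kb of these 16 genes, the surface receptors made up 84.3%, the endocytic receptors 11.8% and the activators 3.71%. Per kb of coding length these shares were 89.3%, 6.82% and 3.59%. Plau, Plat, Plaur and Serpine2 together made up 5.55%.

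**Figure D4:**
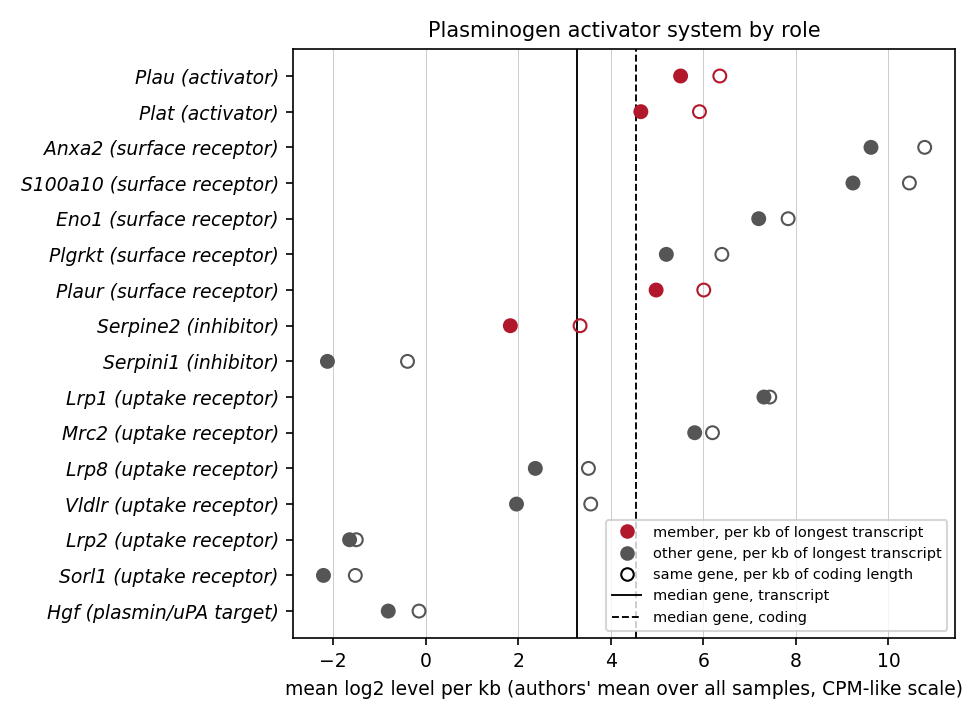
The 16 genes of the plasminogen system considered that had a value, grouped by role, by the authors' mean log2 level per kb over all samples (horizontal axis). Filled points use the longest transcript, open points the coding length, red marks Plau, Plat, Plaur and Serpine2, and vertical lines mark the median gene on each scale. Serpine2 lies to the left of both activators and of its median, at 1.83 against 3.28 on the transcript scale.

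Promoter letters are given because BMS493 acts on receptors that bind DNA. RefSeq promoters of 300 bases, with 250 before and 50 after a start site (GRCm38.p6), matched 6 of the 8 genes, in 7 promoters, with 2 for Serpinb6a. Plau and Plat were not matched. The letters AGGTCA, the core motif that retinoic acid receptors bind in pairs, were searched on both strands. They occurred in 1 of the 7, that of Serpinf1, and in 16.3% of all 32851 promoters. Its direct repeat with 5 bases between the copies was in 0 of the 7 and in 0.00913% of all promoters. Repeats 1 and 2 bases apart were in 0 of the 7 too, and in 0.0396% and 0.00913% of all promoters. With repeats this rare, 0 of 7 says nothing particular about these genes. A match is a run of letters and not a bound site, and an absent match says only that these letters are not in this window.

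The promoter of Serpinf1 (chr11:75422574-75422873, minus strand) holds the core motif at position -209 on the opposite strand and at position -2 as printed, counted from the start site. This RefSeq start lies inside the GENCODE span of the gene, which reaches base 75422701, so both positions depend on the annotation used. The copies are in capitals:
Serpinf1: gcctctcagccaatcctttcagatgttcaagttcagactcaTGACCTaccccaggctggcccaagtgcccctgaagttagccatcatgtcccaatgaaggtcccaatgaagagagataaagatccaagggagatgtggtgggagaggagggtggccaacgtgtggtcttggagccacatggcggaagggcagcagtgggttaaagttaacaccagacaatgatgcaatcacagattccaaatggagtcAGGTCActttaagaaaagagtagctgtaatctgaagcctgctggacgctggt

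The motifs that follow were chosen after the letters had been read. The promoter of Plaur (chr7:24462233-24462532, plus strand) holds TGACTCA at position -69, in capitals, a match to the AP-1 motif TGANTCA that 7.81% of all promoters hold. Of the 7 promoters it was the one with this motif:
Plaur: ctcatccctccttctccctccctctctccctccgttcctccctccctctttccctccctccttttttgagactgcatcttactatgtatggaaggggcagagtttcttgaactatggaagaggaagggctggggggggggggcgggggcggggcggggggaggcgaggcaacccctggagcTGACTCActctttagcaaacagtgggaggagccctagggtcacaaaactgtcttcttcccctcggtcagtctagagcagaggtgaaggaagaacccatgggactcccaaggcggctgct
The promoter of Serpine2 (chr1:79858616-79858915, minus strand) has a GC content of 77.7%, at percentile 97.9 of all promoters, whose median is 52.7%. This window lies inside the GENCODE span of the gene, which reaches base 79861180, so its place also depends on the annotation used. It holds the Sp1 motif GGGCGG 6 times, in capitals, with some copies overlapping. The motif was in 3 of the 7 promoters and in 35.7% of all:
Serpine2: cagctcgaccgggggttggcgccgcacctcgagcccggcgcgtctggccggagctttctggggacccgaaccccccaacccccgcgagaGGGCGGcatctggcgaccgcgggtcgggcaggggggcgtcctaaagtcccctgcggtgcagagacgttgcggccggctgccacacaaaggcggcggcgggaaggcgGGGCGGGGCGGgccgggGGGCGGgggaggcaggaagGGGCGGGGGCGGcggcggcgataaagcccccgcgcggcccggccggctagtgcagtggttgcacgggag

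The promoters of Serpina3n (chr12:104406458-104406757) and Serpina3g (chr12:104235897-104236196), both on the plus strand, show how far the gene pair is alike outside the coding sequence. In a local alignment 111 of 136 aligned bases were identical, or 81.6%, between positions -184 to -41 of Serpina3n and -96 to 50 of Serpina3g. Counted from the RefSeq starts, the like stretch sits farther upstream in Serpina3n. The GENCODE starts, at base 104406729 for Serpina3n and 104236245 for Serpina3g, lie downstream of the RefSeq starts, and farther so in Serpina3g. Most of the offset is absent when positions are counted from the GENCODE starts. Serpina3n holds AATAAA at position -24, in capitals, a variant of the TATA box that 19.6% of promoters hold, and TATAAA was in 0 of the 7. Serpina3g holds TTCCCAGAA at position -33, in capitals, a match to the STAT motif TTCNNNGAA. That motif was also in 1 promoter of Serpinb6a and in 8.30% of all promoters:
Serpina3n: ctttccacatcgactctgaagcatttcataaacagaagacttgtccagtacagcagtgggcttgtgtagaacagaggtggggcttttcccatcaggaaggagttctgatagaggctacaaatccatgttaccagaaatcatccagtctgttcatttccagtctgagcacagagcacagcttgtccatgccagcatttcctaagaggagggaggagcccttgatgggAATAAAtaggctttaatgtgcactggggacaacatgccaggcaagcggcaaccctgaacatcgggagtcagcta
Serpina3g: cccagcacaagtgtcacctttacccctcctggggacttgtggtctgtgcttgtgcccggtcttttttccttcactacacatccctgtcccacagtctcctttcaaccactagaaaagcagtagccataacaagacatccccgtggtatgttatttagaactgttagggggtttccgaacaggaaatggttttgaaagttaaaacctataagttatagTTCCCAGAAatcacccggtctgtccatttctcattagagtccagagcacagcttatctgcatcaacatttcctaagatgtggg
The RefSeq starts of both genes differ from their starts in GENCODE. The positions of the motifs in both promoters therefore depend on the annotation used.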

How the data were processed

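RNA of 8 samples was sequenced as single reads. According to the methods and the processing notes, reads were checked with FastQC, aligned to mm10 (GRCm38) with STAR 2.3.0e, and uniquely mapped reads were counted on Ensembl genes with Rsubread, then normalised between libraries (weighted trimmed mean of M-values), and limma is named as the package. The table the authors deposited has 12589 rows. Its mean log2 expression column over all samples was used and is on the log2 scale. The other 4 columns hold the authors' own comparison of BMS493 with DMSO (log2 fold change, t, p-value and adjusted p-value) and were not used, so no test was made. The unused columns of values per sample numbered 0, so the depth of each sample and the spread between samples are unknown. The paper states only an average number of clusters per sample.

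Lengths came from GENCODE M21 for 98.4% of rows (11783 matched by symbol, 603 by 1 older symbol) and coding lengths for 91.3%. Percentiles per kb are among rows with a length. Values per kb subtract the log2 of length in kb, and ratios are differences of these raised from base 2. Identity used pairwise alignment in Biopython 1.88 under Python 3.11.15. The searches for shared windows and for motifs were tested on simulated sequences, and the other steps were not. The genes, lists and tests were chosen with earlier results of these data known. Named genes were the 8 members, the listed genes of their pathway and other serpins. Some listed genes are not reported here, and counts and shares are over the genes that are.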

Additional observations from a re-analysis of the deposited data

How the results depend on the processing

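The number of the 8 genes above the median gene was 5 with the longest transcript, with coding length, without length scaling and among the 11733 rows with a mean log2 level of at least 1. With no spread between samples, a shift of over 5 percentile points was counted as a move. Coding length and the filter moved 0 of 8 genes by this limit. Without length scaling 3 of 8 moved, Serpina3g from percentile 27.0 to 20.2, Plaur from 81.1 to 70.0 and Plat from 76.4 to 82.0. The count of core motif repeats was 0 at each spacing tried. Such repeats are in at most 0.0396% of all promoters, so 7 promoters cannot show whether the count depends on spacing. No paired analysis was possible because the values used are a mean over all samples. For the same reason DESeq2, other filters or pseudocounts and leaving out single samples were not run.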
